A study of Mus musculus with 15 samples.

Results

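Nitric oxide and arginine metabolism in macrophages was followed through 6 genes, namely Nos2, Ass1, Slc7a2, Gch1, Arg1 and Arg2. They were taken by gene symbol from the array's annotation, out of 10900 gene symbols in the table. Of the 6 genes, 5 had a probe in the table. Arg2 had none in the table and is not analysed here. Every probe in the table gave a signal above background (detection p under 0.05) on some array. Probes without such a signal may have been left out before deposit, so the array itself may still carry an Arg2 probe. Bone marrow-derived macrophages from C57Bl/6 mice were cultured and their total RNA was hybridised to 15 Illumina bead arrays, which measure RNA by the brightness of beads carrying a probe for each transcript. The 6 groups were IFNγ for 18 h then LPS for 6 h (3 arrays), IFNβ for 18 h then LPS for 6 h (2 arrays), LPS for 6 h with no interferon (2 arrays), IFNγ for 18 h alone (3 arrays), IFNβ for 18 h alone (2 arrays) and untreated control cells (3 arrays). They are called IFNγ + LPS, IFNβ + LPS, LPS, IFNγ, IFNβ and control below. The labels name no genetic change in any group. IFNγ and IFNβ are the type II interferon and a type I interferon, and LPS is a lipid from the surface of Gram-negative bacteria that Toll-like receptor 4 detects. LPS was labelled as given at 10 ng/µl, which may be a slip for another unit, and neither interferon has a recorded dose. Nothing in the labels ties an array to its own mouse or culture, so the tests measure only the spread between arrays, which may be technical. The stated purpose of the design was to learn how priming with IFNγ changes the genes that LPS turns on.

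Activated mouse macrophages make nitric oxide, a gas that kills microbes, from the amino acid arginine. Nos2 is the inducible nitric oxide synthase, which turns arginine into nitric oxide and citrulline. Slc7a2 is a transporter that brings arginine into the cell, Gch1 is the rate-limiting enzyme of tetrahydrobiopterin, a cofactor that Nos2 needs, and Ass1 is the first of the enzymes that turn citrulline back into arginine. Arg1 and Arg2, the arginases of the cytosol and the mitochondria, draw on the same arginine to make ornithine and urea.

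Levels are given as log2 of the background-corrected, quantile-normalised bead intensity, so 1 unit is a doubling of brightness. Levels of different probes are not set against each other. A probe was called detected on an array where its deposited detection p was under 0.01. Between 9342 and 11047 probes were detected per array, and the median raw intensity ran from 143 to 241 intensity units. Arrays of a group correlated at r between 0.979 and 0.993. IFNγ + LPS array 1 and IFNγ array 1 lay farthest from their groups, and the arrays of the IFNβ + LPS pair differed most among the pairs, of which array 2 was the dimmest of all 15. Every LPS array was on 1 slide and every other array on the second slide, and any comparison across them carries both (LPS and slide cannot be told apart). All 8 macrophage markers with a probe, of 12 listed, were detected on every array of every group except Itgam in IFNγ + LPS, with a summed intensity of 97600 to 122000. No group detected on all of its arrays the listed markers Cd3e, Klrd1 and Klrb1c of T and NK cells, Ms4a1 of B cells, Cpa3 and Fcer1a of mast cells or Tek and Pecam1 of endothelium. Other members of the T and NK cell, B cell and endothelial lists were detected. The T and NK cell list, with 1 of its 4 probed genes detected, summed to 308 to 334 on the LPS arrays and 837 to 915 on the IFNγ arrays, against 2800 to 3080 on the control arrays. The B cell list, with 2 of its 3 probed genes detected in control, summed to 499 to 693 on the IFNγ arrays against 1210 to 1320 on the control arrays. The endothelial list, with 1 of its 4 probed genes detected in control, summed to 358 to 505 on the LPS arrays and 513 to 739 on the IFNγ arrays, against 1190 to 1410 on the control arrays. Dendritic cell markers summed to 932 to 1120 on the IFNγ arrays against 322 to 431 on the control arrays, and no group detected Dpp4 or Itgae on all of its arrays. Markers of neutrophils summed to 2200 to 3270 over all groups, with 4 to 6 of the 7 probed genes detected on every array of a group. Erythroid and megakaryocytic markers summed to 4760 to 7940, with 1 or 2 of 3 probed genes detected. The 1 probed fibroblast and stromal marker was detected on every array, at 62.8 to 122. The part of these cells in the results below was not tested, and in bulk RNA fewer cells of a type and less RNA per cell cannot be told apart.

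LPS raised RNA of all 4 of the genes that could be tested, namely Nos2, Slc7a2, Gch1 and Ass1. IFNγ alone raised Ass1 and Slc7a2 and lowered Gch1, and Nos2 stayed near background without LPS. With LPS, cells primed with IFNγ had 3.01-fold more Nos2 RNA and 2.14-fold more Slc7a2 RNA than cells given LPS alone, and 1.56-fold less Gch1 RNA. IFNβ moved none of the 4 past the test. Arg1 was detected on IFNγ arrays alone.

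**Figure D1:**
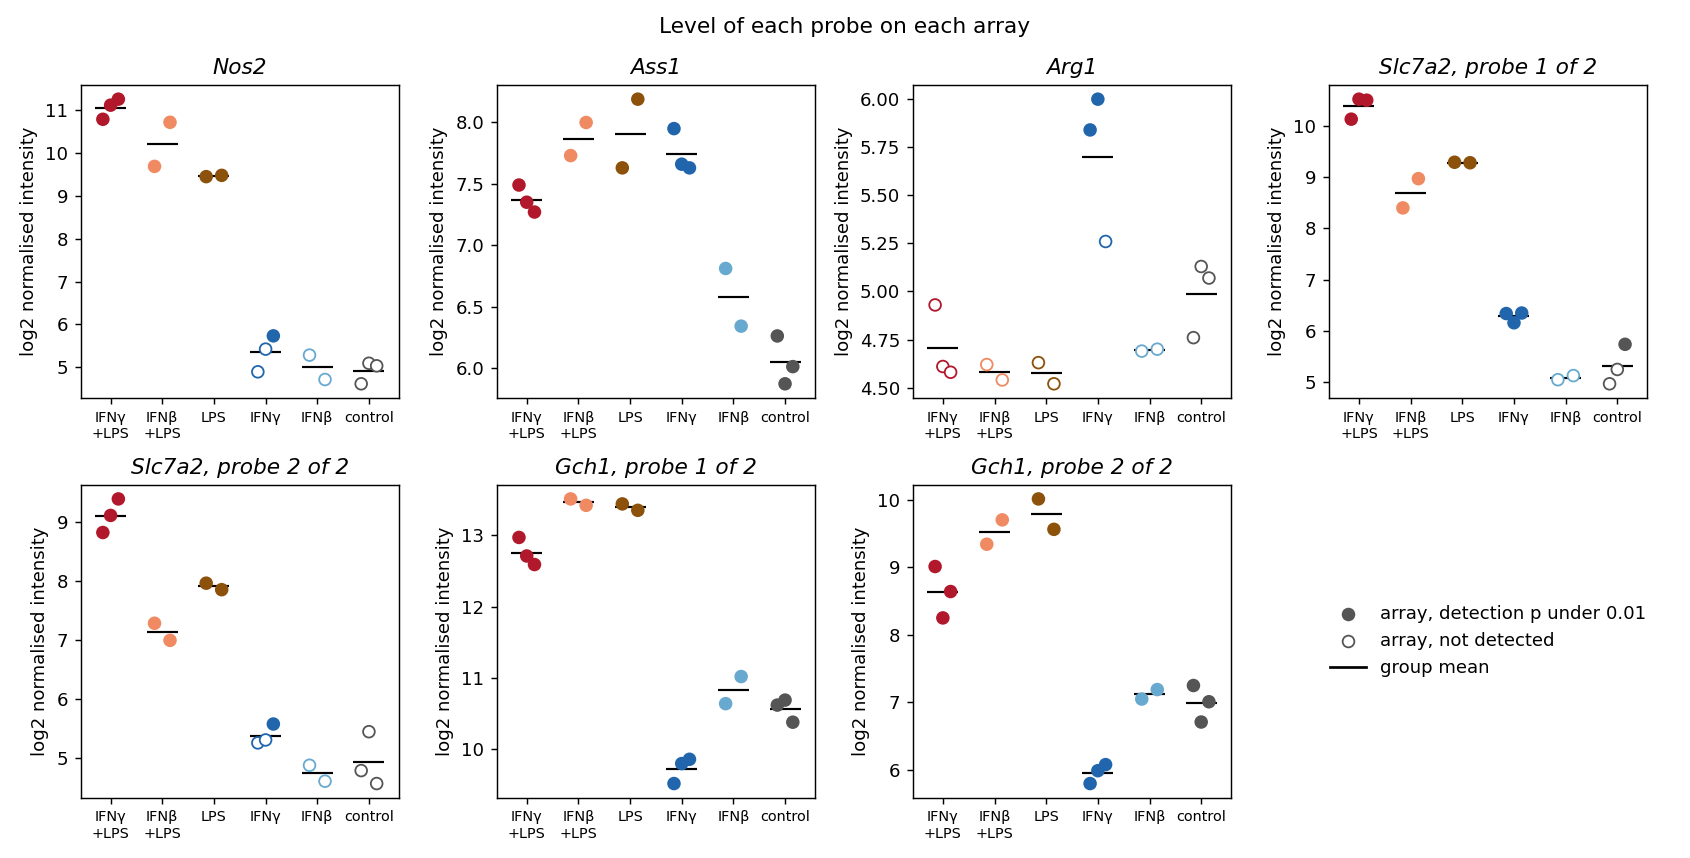
Log2 normalised intensity of Nos2, Slc7a2, Gch1, Ass1 and Arg1 on every array, by group, with the second probe of Slc7a2 and Gch1 in panels of their own. Filled points are detected, open points are not, and the bars mark group means. Nos2 and Slc7a2 are highest in IFNγ + LPS, Gch1 is lowest in IFNγ, and the Arg1 values above detection lie in IFNγ.

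Nos2 lies at chr11:78920787-78960226 (GRCm38.p6) and had 1 probe. Its log2 level was 10.79, 11.12 and 11.26 in IFNγ + LPS, 9.69 and 10.72 in IFNβ + LPS, and 9.45 and 9.48 in LPS. Without LPS it was 4.89, 5.42 and 5.73 in IFNγ, 5.28 and 4.71 in IFNβ, and 4.61, 5.09 and 5.03 in control. The groups given LPS were ordered IFNγ + LPS, then IFNβ + LPS, then LPS, with no overlap between them. The gap between the IFNβ + LPS arrays was the widest within any group for this gene, and the higher of them came within 0.1 of the lowest IFNγ + LPS array. Among the groups without LPS the ranges of IFNγ, IFNβ and control overlapped, and the only array with a detected signal was IFNγ array 3.

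Slc7a2 lies at chr8:40862341-40922070 and had 2 probes, of which the brighter was tested. Its log2 level was 10.13, 10.52 and 10.50 in IFNγ + LPS, 8.40 and 8.97 in IFNβ + LPS, and 9.29 and 9.28 in LPS. Without LPS it was 6.34, 6.16 and 6.35 in IFNγ, 5.05 and 5.13 in IFNβ, and 4.97, 5.25 and 5.74 in control. From high to low the groups ran IFNγ + LPS, LPS, IFNβ + LPS, IFNγ, control and IFNβ, and control and IFNβ were the only neighbours that overlapped. All IFNγ arrays detected the probe, against 1 of 3 control arrays and neither IFNβ array. The second probe gave the same order under LPS, with 8.83, 9.12 and 9.40 in IFNγ + LPS, 7.29 and 7 in IFNβ + LPS, and 7.97 and 7.86 in LPS. Without LPS that probe was detected on 1 of the 8 arrays, an IFNγ array.

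Gch1 lies at chr14:47153895-47189413 and also had 2 probes, both detected on all 15 arrays. Its brighter probe, the one tested, read 12.97, 12.71 and 12.59 in IFNγ + LPS, 13.51 and 13.42 in IFNβ + LPS, and 13.44 and 13.35 in LPS. Without LPS it read 9.52, 9.80 and 9.86 in IFNγ, 10.64 and 11.02 in IFNβ, and 10.62, 10.69 and 10.38 in control. IFNγ arrays were the lowest both with and without LPS, in neither case overlapping the other groups of that kind. The ranges of IFNβ + LPS and LPS overlapped, as did those of IFNβ and control. The second probe read 9.01, 8.25 and 8.64 in IFNγ + LPS against 10.01 and 9.56 in LPS, and 5.80, 5.99 and 6.08 in IFNγ against 7.25, 6.71 and 7.01 in control. It placed IFNγ arrays lowest in both settings as well.

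Ass1 lies at chr2:31470270-31520670 and had 1 probe, detected on all 15 arrays. Its log2 level was 7.49, 7.35 and 7.27 in IFNγ + LPS, 7.73 and 8 in IFNβ + LPS, and 7.63 and 8.19 in LPS. Without LPS it was 7.95, 7.66 and 7.63 in IFNγ, 6.81 and 6.34 in IFNβ, and 6.26, 5.87 and 6.01 in control. LPS, IFNβ + LPS and IFNγ stood together at the top, each overlapping its neighbour. IFNγ + LPS lay below them without overlap, so IFNγ arrays stood above control when no LPS was given and below LPS arrays when it was. IFNβ came next and control last, again without overlap.

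Arg1 lies at chr10:24915207-24927470 and had 1 probe, which missed the detection filter, since no group detected it on every array. Its log2 level was 5.84, 6.00 and 5.26 in IFNγ, against 4.76, 5.13 and 5.07 in control and 4.69 and 4.70 in IFNβ. IFNγ arrays 1 and 2 were detected and lay above every other array in the series, and IFNγ array 3 was not detected and lay only just above the control arrays. Under LPS it was 4.93, 4.61 and 4.58 in IFNγ + LPS, 4.62 and 4.54 in IFNβ + LPS, and 4.63 and 4.52 in LPS, none of them detected. In a limma fit of all 10900 genes without the filter, Arg1 was 0.71 higher in IFNγ than in control (log2, SE 0.187, adjusted p = 0.0151) and 1.01 higher in IFNγ than in IFNβ (SE 0.21, adjusted p = 0.00443). Set against the lowest level that counted as detected on the control arrays, the IFNγ mean was at least 1.13-fold higher. The other comparisons did not pass for Arg1, with adjusted p of 0.142 for LPS minus control and 0.785 for IFNγ + LPS minus LPS.

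The set of RefSeq promoter windows used here, 250 bases before to 50 bases after a gene's start on GRCm38.p6, covered 2 of the 6 genes. They are the genes that IFNγ moved in opposite directions without LPS, Ass1 and Gch1, and both rose with LPS. Capitals mark the matches, on either strand, to the 7 motifs searched. These were the CCAAT box (CCAAT), the TATA box (TATAA), the GC box (GGGCGG), the core of the cyclic AMP response element (TGACG), the STAT site called GAS (TTCNNNGAA), a short form of the interferon-stimulated response element or ISRE (GAAANNGAA) and a short form of the NF-kB site (GGNNNTTCC). Each is read 5′ to 3′ on the gene's strand, from chr2:31470020-31470319 (plus strand) for Ass1 and chr14:47189364-47189663 (minus strand) for Gch1.
Ass1: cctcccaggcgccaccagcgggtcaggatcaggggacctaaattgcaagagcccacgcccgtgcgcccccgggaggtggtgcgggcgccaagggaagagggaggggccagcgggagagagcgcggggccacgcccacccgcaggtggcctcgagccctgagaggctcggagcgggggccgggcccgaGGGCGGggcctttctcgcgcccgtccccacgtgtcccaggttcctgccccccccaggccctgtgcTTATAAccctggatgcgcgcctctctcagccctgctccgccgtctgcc
Gch1: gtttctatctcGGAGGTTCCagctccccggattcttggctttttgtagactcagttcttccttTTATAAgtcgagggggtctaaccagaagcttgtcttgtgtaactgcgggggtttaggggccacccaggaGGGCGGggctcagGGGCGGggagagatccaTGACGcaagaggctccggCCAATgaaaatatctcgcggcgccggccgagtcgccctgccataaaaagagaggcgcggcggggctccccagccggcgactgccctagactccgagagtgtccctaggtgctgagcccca
The Ass1 window, 74.0% G and C, held 1 GC box at position -63 from the gene's start and a TATA box on each strand at positions 3 and 4, which overlap. The Gch1 window, 60.3% G and C, held GC boxes at -118 and -105, the cyclic AMP core at -88, a CCAAT box at -70, an overlapping pair of TATA boxes at -187 and -186 and the short NF-kB pattern at -239. Neither window held the letters of GAS or of the short ISRE. The short NF-kB pattern is common, and a longer form of it searched first had no match in either window. Of 32851 promoters of that length, 35.7% held the GC box, 24.9% the TATA box, 37.4% the CCAAT box, 20.8% the cyclic AMP core, 8.3% GAS, 8.56% the short ISRE and 18.5% the short NF-kB pattern. A match is a description of letters and not a binding site.

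IFNγ given alone for 18 h raised Ass1 and Slc7a2 and lowered Gch1, relative to control. Over all 7669 genes tested, limma called 26.1% changed in this comparison at an adjusted p under 0.05, and 3 of the 4 tested genes were among them. Ass1 averaged 7.75 ± 0.178 in IFNγ and 6.05 ± 0.198 in control (log2, SD, n = 3 each), 3.25-fold higher, a log2 difference of 1.70 (SE 0.183, limma adjusted p = 7.32e-06), or 0.82 with no background correction. Slc7a2 averaged 6.28 ± 0.104 in IFNγ and 5.32 ± 0.389 in control, a difference of 0.96 (SE 0.197, limma adjusted p = 0.00219), although control was detected on 1 of 3 arrays. Its second probe, near background in both groups, gave 0.45 (SE 0.214, limma adjusted p = 0.149), and the call on the first was lost with no background correction (0.31, limma adjusted p = 0.0562). Gch1 was lower in IFNγ by 1.79-fold, a difference of -0.84 (SE 0.154, limma adjusted p = 0.000989), and its second probe gave -1.03 (SE 0.206, limma adjusted p = 0.00187). Nos2 differed by 0.44, with a 95% interval of -0.15 to 1.02 (limma adjusted p = 0.269). Without IFNγ array 1, its lowest, the Nos2 difference was 0.67 (limma adjusted p = 0.116), without IFNγ array 3 it was 0.25 (limma adjusted p = 0.6), and without control array 1 it was 0.29 (limma adjusted p = 0.567). Weighting arrays by their spread gave 0.70 (limma adjusted p = 0.0103), and leaving out IFNγ array 1, IFNγ + LPS array 1 and IFNβ + LPS array 2 together gave 0.67 (limma adjusted p = 0.0291).

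IFNβ given alone for 18 h passed the test for none of the 4 genes, where limma called 1.12% of all genes, 86 in number, and 632 genes had an unadjusted p under 0.05. Ass1 came nearest, at 6.58 ± 0.33 in IFNβ (n = 2) and 6.05 ± 0.198 in control (n = 3), without overlap, a difference of 0.53 with an interval of 0.09 to 0.97 (limma adjusted p = 0.447). The intervals were -0.56 to 0.74 for Nos2, -0.10 to 0.64 for Gch1 and -0.70 to 0.24 for Slc7a2. With 2 IFNβ arrays these intervals do not show a lack of change.

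Compared directly, IFNγ and IFNβ differed for 3 of the 4 genes, where limma called 20.6% of all genes. Ass1 was 2.25-fold higher in IFNγ than in IFNβ, a difference of 1.17 (SE 0.204, limma adjusted p = 0.000911). Slc7a2 was at least 1.72-fold higher in IFNγ, since no IFNβ array detected it (1.19, SE 0.22, limma adjusted p = 0.00139). Its second probe did not pass (0.64, limma adjusted p = 0.0794), and with no background correction the first gave 0.37 (limma adjusted p = 0.046). Gch1 was 2.15-fold lower in IFNγ, a difference of -1.10 (SE 0.172, limma adjusted p = 0.000376). The Nos2 interval, -0.3 to 1, included 0 (0.35, limma adjusted p = 0.464). Leaving out single arrays moved that difference from 0.07, without IFNβ array 2, to 0.63, without IFNβ array 1, and array weights gave 0.62 (limma adjusted p = 0.0413).

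LPS alone for 6 h raised all 4 genes, in a comparison where limma called 55.2% of all genes changed and 21.2% higher. Nos2 averaged 9.47 ± 0.0226 in LPS (n = 2) and 4.91 ± 0.263 in control (n = 3), where no array detected it, and was at least 15.3-fold higher (log2 difference 4.56, SE 0.303, limma adjusted p = 1.58e-08). Slc7a2 was 15.6-fold higher (3.97, SE 0.22, limma adjusted p = 2.23e-09), from a control level detected on 1 of 3 arrays, and its second probe was at least 5.23-fold higher. Gch1 was 7.12-fold higher in LPS (2.83, SE 0.172, limma adjusted p = 5.92e-09), and its second probe 6.96-fold. Ass1 was 3.63-fold higher, a difference of 1.86 (SE 0.204, limma adjusted p = 3e-06). The median difference over all genes was -0.17, and -0.03 when arrays were scaled to a common median instead, against differences of 1.86 to 4.56 for these genes. These folds are on the background-corrected scale. With no background correction the log2 differences were 2.46 for Nos2, 2.17 for Slc7a2, 2.73 for Gch1 and 0.93 for Ass1, all still called. Since 55.2% of all genes passed in one direction or the other, the count of 4 of 4 is read against a high background, and slide and treatment cannot be told apart here.

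IFNγ priming before LPS raised Nos2 and Slc7a2 further and lowered Gch1, relative to LPS alone, on arrays of 1 slide. Here limma called 12.8% of all genes, and 3 of the 4 genes. Nos2 averaged 11.06 ± 0.245 in IFNγ + LPS (n = 3) and 9.47 ± 0.0226 in LPS (n = 2), 3.01-fold higher (1.59, SE 0.303, interval 0.94 to 2.24, limma adjusted p = 0.00401). Slc7a2 was 2.14-fold higher (1.10, SE 0.22, interval 0.63 to 1.57, limma adjusted p = 0.00525), and its second probe 2.3-fold (1.2, SE 0.239, limma adjusted p = 0.00502). Both transcripts stood higher on each IFNγ + LPS array than on either LPS array. IFNγ + LPS array 1 was the nearest of its group to the LPS arrays for both, and without it the differences were 1.73 for Nos2 and 1.23 for Slc7a2 (limma adjusted p of 0.00249 and 0.00223).

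Gch1 averaged 12.76 ± 0.192 in IFNγ + LPS and 13.39 ± 0.063 in LPS, 1.56-fold lower (-0.64, SE 0.172, limma adjusted p = 0.0261). Its second probe gave 8.63 ± 0.38 and 9.79 ± 0.317 for those groups, 2.23-fold lower (-1.16, SE 0.231, limma adjusted p = 0.00502). The call on the first probe was lost on the arrays of the LPS slide alone (limma adjusted p = 0.0865) or of these 2 groups alone (limma adjusted p = 0.108), with the replicate number as a block (-0.60, limma adjusted p = 0.0699), and when LPS array 1 or 2, or IFNγ + LPS array 2 or 3, was left out (limma adjusted p from 0.0801 to 0.143). Ass1 was lower on every IFNγ + LPS array than on either LPS array, at 7.37 ± 0.113 against 7.91 ± 0.399, and did not pass the test (-0.54, interval -0.98 to -0.10, limma adjusted p = 0.0998). The Ass1 difference was -0.82 without LPS array 1 and -0.26 without LPS array 2.

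IFNβ priming before LPS passed the test for none of the 4 genes, where limma called 0.561% of all genes, 43 in number, and 945 genes had an unadjusted p under 0.05. Nos2 read 10.21 ± 0.732 in IFNβ + LPS and 9.47 ± 0.0226 in LPS (n = 2 each), without overlap, a difference of 0.74 with an interval of 0.03 to 1.45 (limma adjusted p = 0.38). The Nos2 difference was 1.26 without IFNβ + LPS array 1 and 0.22 without array 2. Slc7a2 was lower on both IFNβ + LPS arrays than on either LPS array, at 8.68 ± 0.399 against 9.29 ± 0.00864 (-0.60, interval -1.12 to -0.08, limma adjusted p = 0.308), and its second probe gave -0.77 (limma adjusted p = 0.221). Without IFNβ + LPS array 1 the Slc7a2 difference was -0.32. The intervals for Gch1, -0.33 to 0.48, and for Ass1, -0.52 to 0.44, included 0.

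The 2 interferons differed as priming agents for Slc7a2 and Gch1, where limma called 13.4% of all genes. Slc7a2 was 3.25-fold higher in IFNγ + LPS than in IFNβ + LPS (1.70, SE 0.22, limma adjusted p = 0.000209), and 3.91-fold by its second probe (1.97, SE 0.239, limma adjusted p = 0.000126). Gch1 was 1.63-fold lower in IFNγ + LPS (-0.71, SE 0.172, limma adjusted p = 0.0146), and its second probe gave -0.89 (limma adjusted p = 0.0213). On the arrays of that slide alone Slc7a2 kept its call (limma adjusted p = 0.00758) and Gch1 lost it (limma adjusted p = 0.058). Gch1 also lost it on the arrays of these 2 groups alone (limma adjusted p = 0.0979) and without IFNγ + LPS array 3 (0.0621) or IFNβ + LPS array 1 (0.076) or 2 (0.0613). Nos2 was higher on each IFNγ + LPS array than on either IFNβ + LPS array and missed the threshold (0.85, interval 0.2 to 1.5, limma adjusted p = 0.0797). The value moved with single arrays. Without IFNβ + LPS array 1 the difference was 0.33 (limma adjusted p = 0.521), and without array 2, the higher of that pair, it was 1.37 (limma adjusted p = 0.0237). With all arrays it passed with median scaling (1.12, limma adjusted p = 0.0232), cyclic loess (1.05, limma adjusted p = 0.0336), an offset of 50 (0.83, limma adjusted p = 0.0192) or no background correction (0.78, limma adjusted p = 0.0109).

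**Figure D2:**
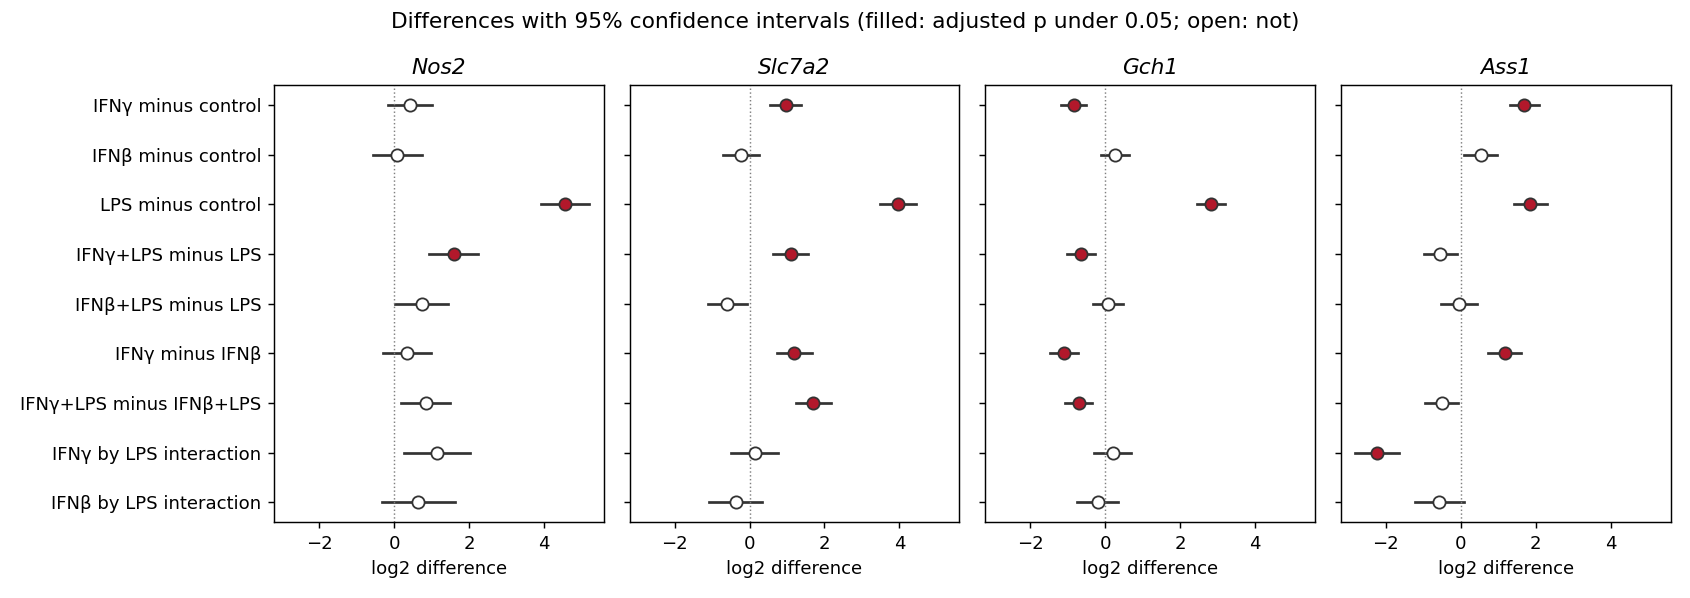
Log2 difference of Nos2, Slc7a2, Gch1 and Ass1 in the 7 comparisons of 2 groups and the 2 interactions, with 95% intervals from the limma fit; filled points passed an adjusted p under 0.05. Ass1 lies above 0 for IFNγ minus control, at 1.70, and at -2.24 for the IFNγ by LPS interaction.

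Whether LPS changed what IFNγ did was tested as an interaction, the IFNγ difference with LPS minus the IFNγ difference without it. One of the 4 genes passed, Ass1, where limma called 12.7% of all genes. Ass1 was 1.70 higher with IFNγ than without it in resting cells and 0.54 lower in LPS-treated cells, where the difference did not pass by itself. The Ass1 interaction was -2.24 (SE 0.274, interval -2.83 to -1.65, limma adjusted p = 7.48e-05). Its adjusted p stayed between 2.4e-05 and 0.00079 over the alternatives run, while its size ran from -2.52 without LPS array 1 to -1.15 with no background correction. For Nos2 the interaction was 1.15 (interval 0.28 to 2.03, limma adjusted p = 0.0804), with adjusted p from 0.0023 to 0.18 over the alternatives, and the IFNγ and control terms come from groups in which Nos2 was at or near background. The interactions of Gch1, 0.20 (interval -0.30 to 0.69), and of the tested Slc7a2 probe, 0.14 (interval -0.50 to 0.77), included 0. The second Slc7a2 probe gave 0.75 (interval 0.06 to 1.44, limma adjusted p = 0.153), and with no background correction the tested probe passed (0.65, limma adjusted p = 0.0167). For IFNβ and LPS none of the 4 passed, with limma calling 0.156% of all genes, 12 in number, and 629 at an unadjusted p under 0.05. The IFNβ interaction intervals were -0.32 to 1.62 for Nos2, -1.22 to 0.08 for Ass1, -0.74 to 0.35 for Gch1 and -1.07 to 0.33 for Slc7a2.

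The genes that make, move and use arginine and nitric oxide were followed through 10 lists, in which 54 genes other than the members were tested. The lists were chosen with earlier results of these data known, so counts within them are descriptions and not tests. In IFNγ minus control 11 of the 54 rose and 12 fell, where 26.1% of all genes were called, with a median of -0.17 against -0.07 over all genes. In LPS minus control 18 rose and 20 fell, where 55.2% of all genes were called (median -0.18 against -0.17). In IFNγ + LPS minus LPS 5 rose and 5 fell, where 12.8% were called (median -0.18 against -0.03). Without IFNγ array 1, IFNγ + LPS array 1 and IFNβ + LPS array 2, the last count became 8 up and 17 down, while the calls over all genes in that comparison became 1982, against 980. In IFNβ minus control none passed, where 1.12% of all genes were called. In IFNβ + LPS minus LPS 1 rose, Il10 (1.73), and 1 fell, Srm (-1.28), where 0.561% of all genes were called. The Srm difference was -0.89 without IFNβ + LPS array 1, and its call was lost with no background correction (-0.56, limma adjusted p = 0.0842) or cyclic loess (-1.06, limma adjusted p = 0.0837).

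**Figure D3:**
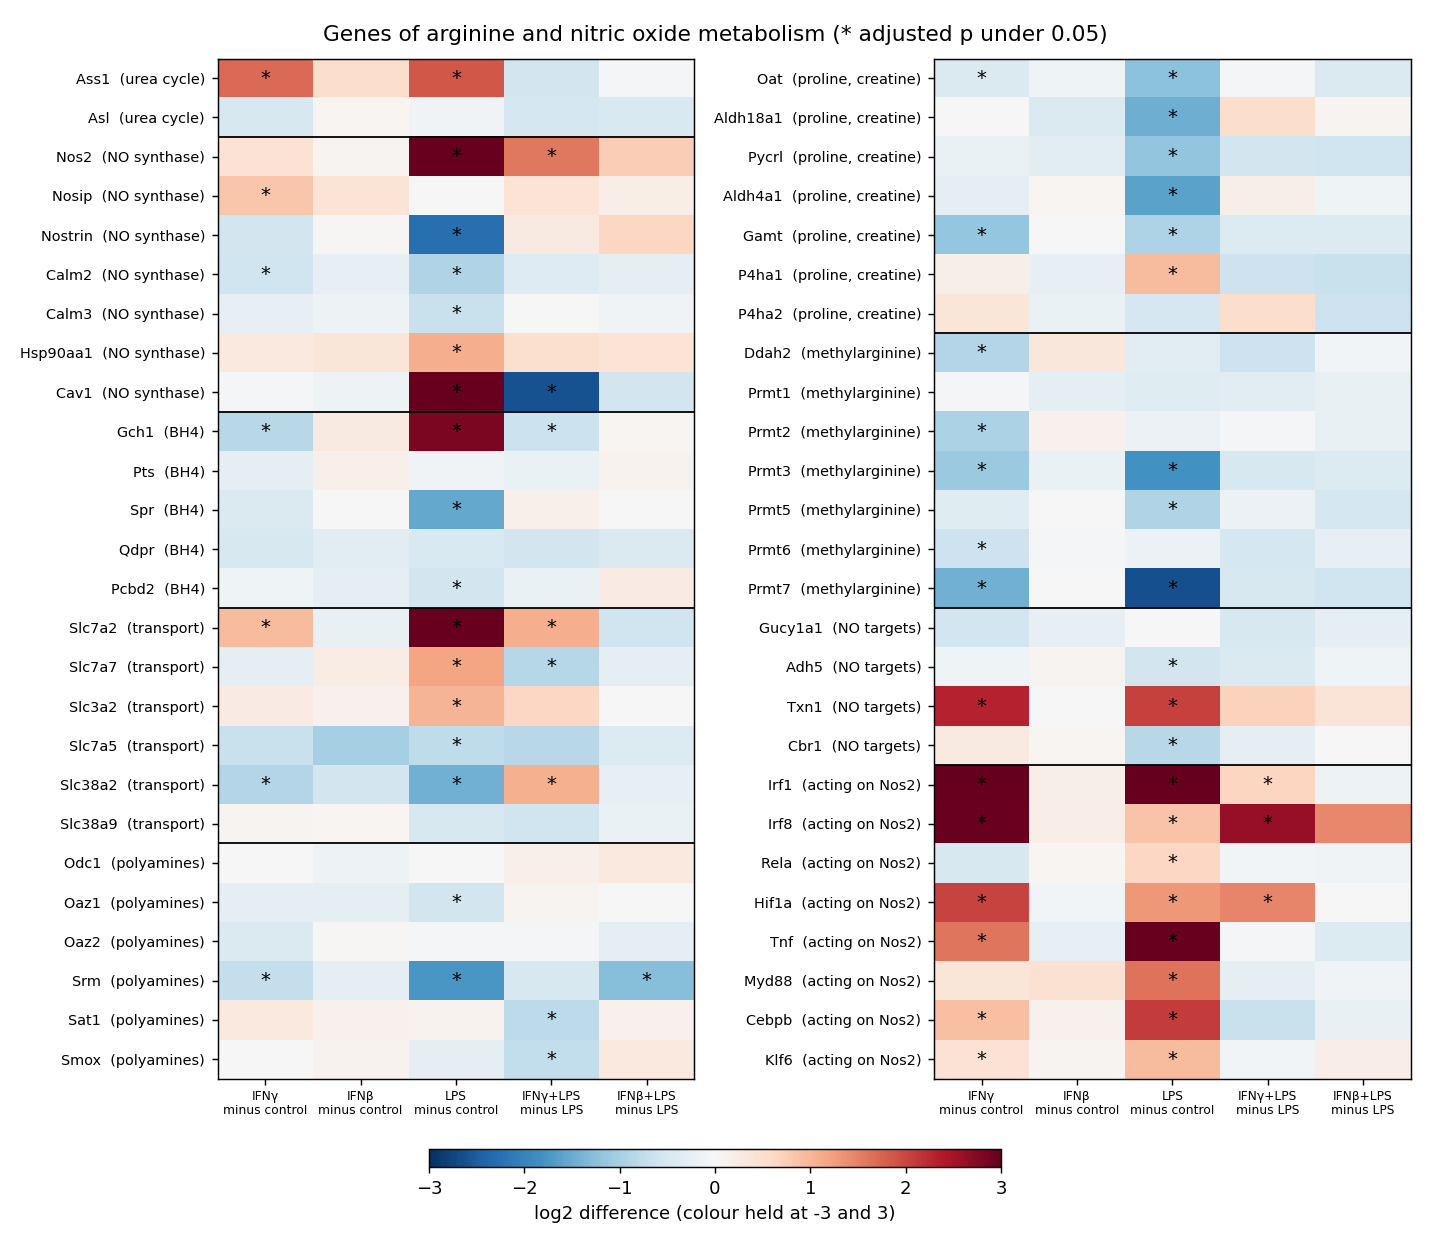
Colour gives the log2 difference, held at -3 and 3, of each tested gene of 9 of the lists, members included, in 5 comparisons, and a star marks an adjusted p under 0.05. Nos2, Slc7a2 and Gch1 are dark red for LPS minus control at 4.56, 3.97 and 2.83, and the IFNβ minus control columns hold no star.

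Among the enzymes that recycle citrulline, Asl, which follows Ass1 and releases arginine, did not pass in IFNγ minus control (-0.49) or LPS minus control (-0.11), so 1 of the 2 tested genes of the urea cycle list rose in each comparison, and that gene was Ass1. Of the 7 tested nitric oxide synthase genes and partners, Nos2 included, 1 rose and 1 fell with IFNγ, and 3 rose and 3 fell with LPS. Over all genes 11.5% were called higher and 14.6% lower with IFNγ, and 21.2% higher and 34% lower with LPS. Nosip, a protein that binds nitric oxide synthases, rose by 0.83 with IFNγ (0.49 with no background correction). Nostrin, which was described as moving the endothelial synthase within the cell, was 4.79-fold lower in LPS than in control (-2.26, SE 0.264, limma adjusted p = 5.38e-06). Cav1, the main protein of caveolae and a binder of nitric oxide synthases, was at least 25.8-fold higher in LPS than in control (5.61, or 3.25 with no background correction). In cells primed with IFNγ it read 9.23, 6.81 and 6.76 in IFNγ + LPS, against 10.31 and 10.12 in LPS (-2.61, SE 0.508, limma adjusted p = 0.00443). IFNγ + LPS array 1 stood nearest the LPS arrays for Cav1 too.

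Of the 5 tested genes of tetrahydrobiopterin synthesis, 1 rose with LPS, Gch1, and 2 fell (1 under median scaling or cyclic loess). Over all genes 21.2% were called higher and 34% lower in that comparison, so these counts are near the background. Spr and Pcbd2 were the 2 that fell, and the Pcbd2 difference was -0.54, or -0.46 without LPS array 1. Spr, sepiapterin reductase, which makes the last step of the synthesis, was 2.92-fold lower in LPS than in control (-1.54, SE 0.29, limma adjusted p = 0.000441, or -0.77 with no background correction), and Pts, the enzyme after Gch1, did not pass with IFNγ (-0.26) or LPS (-0.11). Among the 6 tested transport genes 3 rose and 2 fell with LPS, where 21.2% of all genes were called higher and 34% lower. Beside Slc7a2 those that rose were Slc7a7, a cationic amino acid exporter, at 2.29-fold (1.19, SE 0.238, limma adjusted p = 0.000714), and its heavy chain partner Slc3a2 at a difference of 1.03 (0.50 with no background correction). Slc7a5 and Slc38a2 were the 2 that fell. The Slc7a5 difference was -0.77, -0.38 with no background correction and -0.39 without LPS array 2. Its call was lost under cyclic loess (limma adjusted p = 0.0567) or without control array 1 or 2. Slc38a2, a transporter of small neutral amino acids, fell by 0.87 with IFNγ and by 1.45 with LPS, and was 2.1-fold higher in IFNγ + LPS than in LPS (1.07, SE 0.22, limma adjusted p = 0.00611). Slc7a7 was 1.81-fold lower in IFNγ + LPS than in LPS, the opposite of Slc7a2 in that comparison. The Slc7a7 call was lost without any one of LPS array 1, LPS array 2, IFNγ + LPS array 2 and IFNγ + LPS array 3, and the Slc38a2 call without LPS array 2 (0.87, limma adjusted p = 0.0813).

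On the arginase side of the pathway, Odc1, ornithine decarboxylase, which makes putrescine from ornithine, did not pass in IFNγ minus control (-0.01), LPS minus control (0.01) or IFNγ + LPS minus LPS (0.15). Srm, spermidine synthase, fell by 0.71 with IFNγ and was 3.36-fold lower in LPS than in control (-1.75, SE 0.231, limma adjusted p = 1.87e-05). Sat1 and Smox, which break polyamines down, were 1.72-fold and 1.69-fold lower in IFNγ + LPS than in LPS, calls lost without LPS array 2 for both and without LPS array 1 or IFNγ + LPS array 2 or 3 for Smox. The IFNγ call on Srm was lost without IFNγ array 1 or 3 or control array 3 (limma adjusted p from 0.0673 to 0.0826). The list for proline, glutamate and creatine had 7 tested genes, among them P4ha1 and P4ha2, which act on proline already in proteins. With LPS 1 of the 7 rose and 5 fell (median -1.18), or 4 fell under cyclic loess. Over all genes 21.2% were called higher and 34% lower. The gene that rose was P4ha1 (0.94, or 0.61 with no background correction). Aldh4a1, which makes glutamate in proline breakdown, was 3.04-fold lower in LPS than in control (-1.60, SE 0.187, limma adjusted p = 5.46e-06). Gamt, the last enzyme of creatine synthesis, was 2.24-fold lower in IFNγ than in control (-1.16, SE 0.306, limma adjusted p = 0.0111), a call lost without control array 2 (limma adjusted p = 0.0562). It read 7.2, 8.4 and 8.32 in IFNγ against 9.09, 9.53 and 8.8 in control, so IFNγ array 1 was well below the others of its group. With LPS the Gamt difference was -0.92, a call lost without control array 1 (limma adjusted p = 0.0585) or 2 (limma adjusted p = 0.117).

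Of the 7 tested genes that put methyl groups on arginine in proteins or clear the methylated arginines that block nitric oxide synthases, 5 fell with IFNγ and none rose, with a median of -0.89 against -0.07 over all genes, of which 14.6% were called lower. They were Prmt7, 2.69-fold lower in IFNγ than in control (-1.43, SE 0.219, limma adjusted p = 0.000215), Prmt3 (-1.12), Prmt2 (-0.96), Prmt6 (-0.62, or -0.39 with no background correction) and Ddah2 (-0.89, or -0.35), where the Prmt genes encode methyltransferases and Ddah2 a hydrolase of the free methylarginines. With LPS, 3 of the 7 fell, where 34% of all genes were called lower. Prmt7 was 6.22-fold lower in LPS than in control (-2.64, SE 0.245, limma adjusted p = 5.49e-07). This list, like the others, was chosen with earlier results of these data known, so its counts are a description and not a test. Of 4 tested genes for receptors of nitric oxide and removal of it from proteins, 1 rose and none fell with IFNγ, and 1 rose and 2 fell with LPS. Over all genes 11.5% were called higher and 14.6% lower with IFNγ, and 21.2% higher and 34% lower with LPS. Txn1, thioredoxin, was 5-fold higher in IFNγ than in control (2.32, SE 0.213, limma adjusted p = 1.62e-06) and 4.12-fold higher in LPS than in control. Those that fell with LPS were Cbr1 (-0.84) and Adh5 (-0.56, or -0.39 and not called under cyclic loess).

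Factors known to act on Nos2 were listed with earlier results of these data known, so their counts are a description and not a test. Over all genes 11.5% were called higher with IFNγ and 21.2% with LPS. Of the 8 tested genes for these factors, 6 rose with IFNγ (median 1.25) and 8 rose with LPS (median 1.46), and none fell. Of these calls, Klf6 with IFNγ was lost without IFNγ array 1 or 2 or control array 1 or 2, and Rela with LPS was 0.61 and without LPS array 1 0.36 (limma adjusted p = 0.223). Irf8 with LPS was lost without LPS array 2 or control array 1. Irf1, a transcription factor needed for full Nos2 induction in mouse macrophages, was 10-fold higher in IFNγ than in control (3.33, SE 0.118, limma adjusted p = 5.12e-11). Irf8 was 7.79-fold higher in IFNγ than in control (2.96, SE 0.258, limma adjusted p = 9.43e-07) and 6.12-fold higher in IFNγ + LPS than in LPS (2.61, SE 0.289, limma adjusted p = 5.13e-05). Hif1a, the oxygen-regulated factor, was 4.06-fold higher in IFNγ than in control and 2.77-fold higher in IFNγ + LPS than in LPS. Irf1 was 1.56-fold higher in IFNγ + LPS than in LPS (0.64, limma adjusted p = 0.00598), a call lost with median scaling (0.44, limma adjusted p = 0.0563) or without LPS array 2 (0.57, limma adjusted p = 0.0661). Tnf, a cytokine that adds to Nos2 induction, was 62.7-fold higher in LPS than in control and did not pass in IFNγ + LPS minus LPS (-0.03). Of 7 tested genes for factors known to act on Arg1, 4 rose and 2 fell with IFNγ, where 11.5% of all genes were called higher and 14.6% lower. With LPS 5 rose and 1 fell, where 21.2% were called higher and 34% lower. The 4 that rose with IFNγ were Il10 (1.82, or 0.72 with no background correction), Il10ra, Stat3 and Cebpb. Il10ra read 10.55, 10.09 and 10.13 in IFNγ against 8.46, 7.99 and 8.35 in control. Stat3 read 10.52, 11.05 and 10.4 in IFNγ against 9.46, 9.43 and 9.35 in control. Pparg, a nuclear receptor of alternatively activated macrophages, was 2.05-fold lower in IFNγ than in control. Stat6, the factor of IL-4 signalling, read 7.34, 8.46 and 8.23 in IFNγ, and its difference from control was -0.73, or -0.40 without IFNγ array 1 (limma adjusted p = 0.0977). Cebpb, which acts on both genes, rose by 0.91 with IFNγ and by 2.09 with LPS.

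The genes whose levels followed each member most closely over the 15 arrays were named by Pearson's r, as a description. For Nos2 they were Nectin2 (r = 0.992), Birc3 (0.989) and Otud5 (0.986), and for Slc7a2 they were Prex1 (0.988), Rasgrp1 (0.988) and F2r (0.985). For Gch1 they were Fabp3 (0.991), Tmem184b (0.99) and Gas7 (0.987), and for Ass1 they were Fcgr1 (0.964), Dusp28 (0.961) and Ptpn6 (0.959). The r for Nos2, Slc7a2 and Gch1 share the step between arrays with and without LPS. Ass1 had that step where no IFNγ was given, from 6.05 in control to 7.91 in LPS and from 6.58 in IFNβ to 7.87 in IFNβ + LPS. With IFNγ it did not rise, at 7.75 in IFNγ and 7.37 in IFNγ + LPS, so its r carry other differences between groups as well. Nos2 and Slc7a2 correlated at r = 0.973 over all 15 arrays and at 0.745 over the 7 LPS arrays. Over those 7 arrays Nos2 and Gch1 ran in opposite directions, at r = -0.833, and Slc7a2 and Gch1 did so at r = -0.951. The r over the LPS arrays carry the differences between the groups given LPS, which are described above.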

How the data were processed

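The authors deposited a non-normalised table that holds, per the file headers, the mean bead intensity of each probe with a detection p-value. They also deposited a table of processed log2 values. Not given in the sources used here: the scanner software. The table held 15978 probes, of which 14994 carried 1 gene symbol in the platform annotation, 984 none and 0 several. All 15978 had a detection p under 0.05 on some array, so the table may have been filtered before deposit. Arrays were joined to groups by title, and to columns by slide and position; 0 columns of values stayed unmapped. Intensities were background-corrected with limma 3.58.1 (R 4.3.3), nec with an offset of 16 and negative controls inferred from the detection p-values, then quantile-normalised and taken to log2. The result correlated with the deposited log2 values at r of at least 0.9998 on each array. A probe was kept if all arrays of some group detected it at p under 0.01 (11117 probes), and the brightest probe per symbol stood for its gene (7669). limma's linear model on 6 group means with all 15 arrays gave two-sided moderated tests in 9 comparisons, with Benjamini-Hochberg adjustment over all genes and calls under 0.05. The typical precision was an SE of 0.183 for IFNγ minus control. The arrays' number limits the precision. Where no array of the dimmer group detected a probe, a fold is given as "at least", against the mean of, per array, the higher of its lowest detected level and the probe's own.

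The members and gene lists were chosen with earlier results of these data known. Named genes are the members, list genes called in at least 1 comparison of 2 groups, up to 2 uncalled genes per list, and the 3 genes most correlated with each member. Alternatives changed background, offset, scaling, filter, variance model, array weights, arrays used and each array left out. The ISRE and NF-kB patterns were shortened after a first search with longer forms found no match in the printed windows. Replicate numbers are shared by the groups, but the labels do not say that they pair arrays, so they were not taken to do so. The 33 same-numbered pairs of arrays had deviations correlated at -0.44 to 0.22 (median -0.02). In a group of 2 arrays the deviations mirror each other, so these values cannot exclude pairing.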

Additional observations from a re-analysis of the deposited data

Results flagged for a closer look

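Ass1 stood out because the effect of IFNγ differed between resting and LPS-treated cells by a direct test: the IFNγ by LPS interaction was -2.24 (log2, limma adjusted p = 7.48e-05). The IFNγ difference was 1.70 without LPS and -0.54 with it. The difference with LPS did not pass by itself (limma adjusted p = 0.0998), and was -0.82 without LPS array 1 and -0.26 without LPS array 2. Every IFNγ array lay above every control array, while every IFNγ + LPS array lay below both LPS arrays. Slide and LPS cannot be told apart across this interaction, though each of its 2 differences lies within 1 slide.

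Arg1 was picked out because a signal appeared in a probe outside the genes tested. It was 0.71 higher in IFNγ than in control (log2), detected on 2 of 3 IFNγ arrays and on none of the 12 others.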

How the results depend on the processing

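Leaving out 1 array at a time gave 3 members called for IFNγ minus control and for IFNγ minus IFNβ, 4 for LPS minus control, 2 to 3 for IFNγ + LPS minus LPS, 1 to 2 for IFNγ + LPS minus IFNβ + LPS and for the IFNγ interaction, and 0 for the IFNβ comparisons. The genes called then ranged from 1562 to 2127, 862 to 1685, 3455 to 4391, 404 to 1500, 520 to 1510 and 640 to 1240 in that order, and from 31 to 105 for IFNβ minus control, 1 to 99 for IFNβ + LPS minus LPS and 1 to 26 for the IFNβ interaction. With probes detected on all arrays only Gch1 and Ass1 are tested: 2 were called for LPS minus control, 1 for IFNγ + LPS minus LPS and 1 for IFNγ + LPS minus IFNβ + LPS. For the last, fits on the arrays compared or on 1 slide called 1. For the IFNγ interaction, 3 were called with no background correction and 2 with offset 50, the authors' values, the arrays compared, or 3 doubted arrays left out (IFNγ array 1, IFNγ + LPS array 1 and IFNβ + LPS array 2, chosen after seeing the data).

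Counts of genes called moved with array weights (3072 for IFNγ minus control, 195 for IFNβ minus control, 2610 for IFNγ minus IFNβ, 1464 for the IFNγ interaction, 16 for IFNβ + LPS minus LPS, 6 for the IFNβ interaction). On the arrays compared they were 203 for IFNγ + LPS minus LPS, 0 for IFNβ + LPS minus LPS and 187 for IFNγ + LPS minus IFNβ + LPS, and on 1 slide 305, 0 and 403. Without the 3 doubted arrays they were 153 for IFNβ minus control, 1982 for IFNγ + LPS minus LPS, 114 for IFNβ + LPS minus LPS and 19 for the IFNβ interaction. IFNβ + LPS minus LPS gave 65 with no background correction, 28 with no filter and 11 with probes detected on all arrays. The IFNβ interaction gave 23, 20 with offset 50, 25 with probes detected on all arrays, 28 with a trended variance and 6 with the replicate block. The reported counts were 2001 for IFNγ minus control, 86 for IFNβ minus control, 980 for IFNγ + LPS minus LPS, 43 for IFNβ + LPS minus LPS, 1582 for IFNγ minus IFNβ, 1029 for IFNγ + LPS minus IFNβ + LPS, 974 for the IFNγ interaction and 12 for the IFNβ interaction. The cause was not tested.

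Small differences changed sign: Gch1 in the IFNγ interaction without the 3 doubted arrays (-0.01), Nos2 in IFNβ minus control without control replicate 1 (-0.06) or IFNβ replicate 1 (-0.20; all arrays left out in turn gave -0.20 to 0.37), Ass1 in IFNβ + LPS minus LPS without LPS replicate 2 (0.24) or IFNβ + LPS replicate 1 (0.10; -0.32 to 0.24 over all), and Slc7a2 in the IFNγ interaction without control replicate 3 (-0.07; -0.07 to 0.31 over all). None of these had passed the test. Cyclic loess turned the split of calls in IFNγ minus control to 1090 up and 858 down, against 884 up and 1117 down, and gave 1969 up and 2027 down in LPS minus control, against 1627 up and 2608 down. With the replicate block, 3 members were called in IFNγ minus control as without it, and the block ended the Gch1 call in IFNγ + LPS minus LPS (adjusted p = 0.0699). The 1-slide fit could not be made for LPS minus control or the interactions. Levels near background limit Nos2, Slc7a2 and Arg1 without LPS.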
